A study of Mus musculus with 24 samples.

Results

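Myelin genes of mature oligodendrocytes were followed through the nuclear RNA of hippocampal nuclei sorted with an antibody against NeuN, a protein of neuronal nuclei. The genes were taken by name, as 9 widely used myelin genes (Mbp, Mog, Mag, Mobp, Cnp, Mal, Opalin, Myrf and Cldn11), and all 9 were present among the 55254 genes of both deposited count tables. The tissue came from male C57BL/6N mice aged 6 months, housed in home cages without further treatment. NeuN+ and NeuN- nuclei of WT, Mutyh-/-, Ogg1-/- and double knockout (DKO, Ogg1-/- crossed with Mutyh-/-) mice gave 8 groups of 3 libraries, 24 in all. Ogg1 and Mutyh encode DNA glycosylases of base excision repair, and both were inactivated in the whole animal rather than in one cell type. The comparisons ask whether loss of a glycosylase changes gene expression in neurons or in the other cells of the hippocampus.

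Oligodendrocytes wrap axons in myelin, a stack of membrane rich in lipids and in a small set of proteins. Mbp, Mobp and Mal belong to the compacted membrane or to its sorting, Cnp and Mag to the uncompacted layers next to the cytoplasm and the axon, Mog to the outermost surface, and Cldn11 to the tight junctions between the layers. Opalin encodes a membrane protein of the paranodal loops, and Myrf the membrane-bound transcription factor that switches on myelin genes as oligodendrocytes mature. Oligodendrocyte nuclei carry no NeuN, so a sort on NeuN sends them to the NeuN- fraction together with the nuclei of astrocytes, microglia, oligodendrocyte precursors and vessel cells. Ribosome-bound and transported myelin RNA of the processes is not part of nuclear RNA.

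Total counts ranged from 56563586 to 96192142 per library, with a median of 70434612. RNA of neither targeted gene fell with its knockout label. In CPM (counts scaled by TMM factors over all 24 libraries to a common library size, the unit of all levels below), Ogg1 had 5.63 to 7.13 in the 6 NeuN- libraries labelled Ogg1-/- or DKO against 5.70 to 6.52 in the other 6, and 3.21 to 3.66 against 2.77 to 3.77 in NeuN+. Mutyh RNA was higher, not lower, in the 6 libraries labelled Mutyh-/- or DKO, with 6.65 to 9.71 against 2.39 to 3.29 CPM in NeuN- and 8.47 to 12.2 against 1.15 to 1.41 CPM in NeuN+. Counts per whole gene do not show which exons were read. Mutyh RNA separated the libraries by their Mutyh label, whereas Ogg1 RNA did not separate them by the Ogg1 label. Every genotype named below is that of the library label. The methods give nuclei pooled from several animals per genotype, and whether a replicate is an animal, a pool or a share of a pool is not clear from them, so the p-values measure only the spread between these libraries.

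On GRCm38, Mog lies at chr17:37010743-37023398, Mag at chr7:30899176-30914873, Mal at chr2:127633226-127656695, Opalin at chr19:41061710-41077113 and Myrf at chr19:10208272-10240748, all on the minus strand. Mobp at chr9:120149707-120181484, Cnp at chr11:100574904-100591729 and Cldn11 at chr3:31149920-31164324 are on the plus strand. Cnp shares 154 exon bases with Dnajc7 on the opposite strand, and Mobp shares 79 exon bases with the transcript Gm38642 on its own strand. The library kit keeps strand, but the sources used here do not give the strand setting of the counting, so reads in these overlaps could have been split. No member lies on chromosome 6 with Ogg1 or on chromosome 4 with Mutyh.

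Because Myrf is itself one of the members, the bases around the start sites were searched for letters of its known binding motif (CTGGCAC and CTGGTAC) and for letters bound by SOX factors such as Sox10 (ACAAAG and ACAATG), on both strands, with overlaps counted. The windows were RefSeq promoters of GRCm38.p6 reaching from 250 bases before to 50 bases after a start. Mbp was left out of the search and no window was available for Myrf. The other 7 members had 1 or more, 9 windows in all, 3 of them of Mag. CTGGCAC occurred in 4 of the 9 windows, of 3 of these 7 members (Cnp, Mag and Opalin), and in 5.04% of all 32544 promoters. CTGGTAC occurred in 1 window, of Mog, and in 2.23% of all promoters. ACAAAG occurred in 5 windows, of 4 members (Cnp, Mag, Mobp and Opalin), and in 18.7% of all promoters, and ACAATG in 0 windows and in 12.4% of all. The Mag windows with matches overlap and hold the same sites, so each of these sites is counted in both windows. The Opalin match to CTGGCAC lies after the start. The 250 bases before the start are printed for 3 members that differ in these letters, with matches in capitals. Cnp, Opalin and 2 of the 3 Mag windows hold both kinds of match, and Mobp holds 6 matches to ACAAAG on the opposite strand, the highest number of SOX matches among the 32544 promoters, which was noticed after the counts were seen.
Cnp, chr11:100574689-100574938 (plus strand): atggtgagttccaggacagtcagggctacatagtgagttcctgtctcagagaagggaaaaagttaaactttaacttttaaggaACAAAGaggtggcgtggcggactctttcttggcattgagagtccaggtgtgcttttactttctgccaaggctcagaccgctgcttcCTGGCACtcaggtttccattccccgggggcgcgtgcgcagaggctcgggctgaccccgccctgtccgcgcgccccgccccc
Mag, chr7:30914864-30915113 (minus strand): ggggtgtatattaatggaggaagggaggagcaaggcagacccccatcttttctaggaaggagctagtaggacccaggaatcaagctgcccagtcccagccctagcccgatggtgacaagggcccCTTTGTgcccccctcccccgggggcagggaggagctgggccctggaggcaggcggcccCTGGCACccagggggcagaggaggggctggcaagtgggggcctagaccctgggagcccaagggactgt
Mobp, chr9:120149492-120149741 (plus strand): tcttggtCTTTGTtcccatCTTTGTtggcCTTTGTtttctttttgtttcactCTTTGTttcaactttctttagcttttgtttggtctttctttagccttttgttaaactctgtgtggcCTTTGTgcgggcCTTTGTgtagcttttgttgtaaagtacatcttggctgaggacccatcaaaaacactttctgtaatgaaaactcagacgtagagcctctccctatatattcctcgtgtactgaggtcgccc
A match of letters describes the sequence and no more, and the RNA counts do not show whether a factor bound there.

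In WT, all 9 members were called higher in NeuN- than in NeuN+ nuclei, against a background of 42.9% of 33523 genes called in either direction. A call between cell types required a log2 fold change beyond 1 in either direction and a Benjamini-Hochberg adjusted p under 0.05 in edgeR's quasi-likelihood test over all 24 libraries. NeuN+ and NeuN- libraries ran on different lanes according to the labels, so an effect of lane cannot be told apart from one of cell type. The 9 members fell into a group with a large difference and a group with a smaller one. Cldn11 had 185 to 197 CPM in NeuN- and 0.727 to 0.989 CPM in NeuN+, which is a log2 difference of 7.78 (SE 0.19, adjusted p = 6.56e-20 by the quasi-likelihood test). Mag at 7.75, Mal at 7.65, Opalin at 7.46, Mobp at 7.40 and Mog at 6.59 were of a similar order on the log2 scale. The ranges of NeuN- and NeuN+ libraries lay far apart for each of them.

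Myrf, Mbp and Cnp differed less between the fractions. Myrf had 285, 297 and 323 CPM in the WT NeuN- libraries and 8.24, 8.67 and 8.80 CPM in WT NeuN+, which is a log2 difference of 5.14 (SE 0.11). Mbp had 1991, 2067 and 2235 CPM in NeuN- and 94.6, 95.1 and 103 CPM in NeuN+, which is a log2 difference of 4.43 (SE 0.09). Cnp had 323, 351 and 378 CPM in NeuN- and 34.7, 36.2 and 36.9 CPM in NeuN+, which is a log2 difference of 3.29 (SE 0.12). Their 95% intervals (4.91 to 5.36 for Myrf, 4.24 to 4.61 for Mbp, 3.05 to 3.53 for Cnp) overlapped neither each other nor those of the other 6 members, whose lowest bound was 6.27 for Mog. Adjusted p over the 9 members ranged from 7.24e-21 to 1.28e-16 in the quasi-likelihood test.

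Expressed as a percentage of the WT NeuN- level, the NeuN+ level was 10.2% for Cnp, 4.65% for Mbp and 2.84% for Myrf, and between 0.454% (Cldn11) and 1.04% (Mog) for the other 6 members. NeuN+ RNA thus did not hold the 9 genes in the proportions of NeuN- RNA. Mbp took 63.2% ± 1.32 (SD, n = 3) of the summed CPM of the 9 genes in WT NeuN+ and 42.8% ± 1.05 in WT NeuN-, and Cnp took 23.3% ± 0.483 and 7.15% ± 0.388. The median percentage was 1.28% over 25 other mature oligodendrocyte genes, 0.919% over 8 precursor genes, 5.27% over 8 astrocyte genes and 6.45% over 7 microglial genes. Over 8 neuronal genes it was 938%. What part RNA of other nuclei had in the NeuN+ values of Cnp, Mbp and Myrf was not tested. The exons of Dnajc7, on the opposite strand, overlap those of Cnp by 154 bases. Mean Dnajc7 levels of the WT libraries were 74.1 (NeuN+) and 96.0 (NeuN-) CPM. Whether reads of Dnajc7 entered the Cnp counts, and so its percentage and share, was not tested either.

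**Figure D1:**
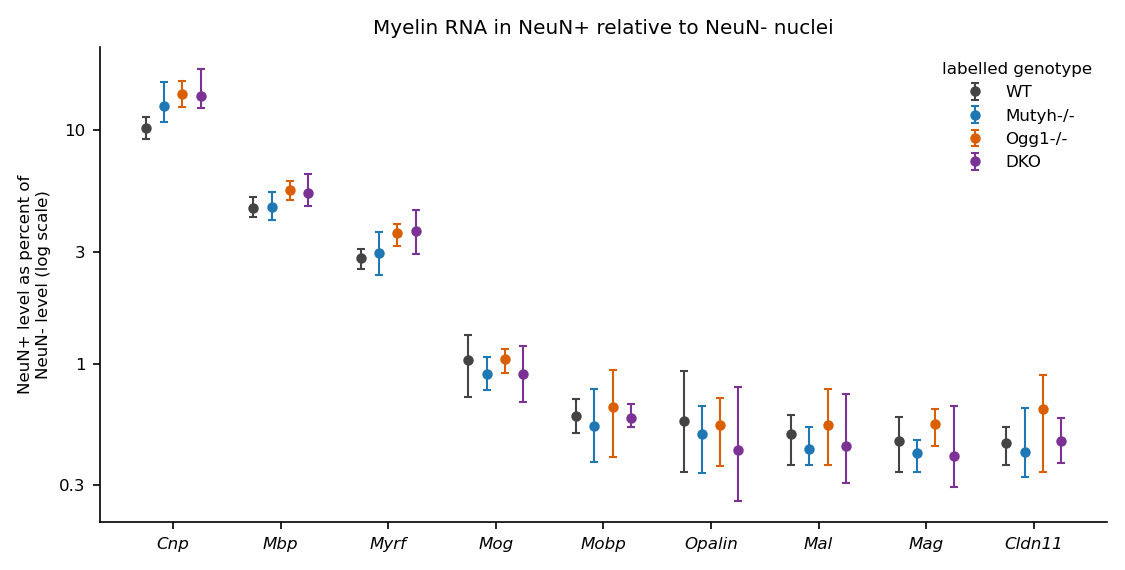
NeuN+ level of each myelin gene as a percentage of its NeuN- level (log scale) in libraries of each labelled genotype, with points from group means and bars from the lowest to the highest ratio that any pairing of 3 NeuN+ with 3 NeuN- libraries gives. In WT, Cnp stands at 10.2%, Mbp at 4.65% and Myrf at 2.84%, above the other 6 genes at 0.454% to 1.04%.

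Levels of different genes are comparable only per length, in FPKM (CPM divided by the length of the merged exons in kilobases). In WT NeuN- nuclei the order was Mbp at 248 ± 14.7 (SD, n = 3), Mal at 163 ± 6.59, Mobp at 119 ± 11.9, Cldn11 at 102.4 ± 3.20, Mag at 98.7 ± 10.9, Cnp at 96.4 ± 7.56, Mog at 92.3 ± 8.25, Opalin at 44.5 ± 9.65 and Myrf at 35.2 ± 2.30. Neighbours overlapped from Cldn11 to Mog and between Opalin and Myrf, and the other neighbours did not. In WT NeuN+ nuclei Mbp at 11.5 ± 0.572 and Cnp at 9.87 ± 0.313 FPKM stood above the rest, which lay between 0.253 for Opalin and 1.00 for Myrf. There the order overlapped from Myrf over Mog and Mal to Mobp, and between Cldn11 and Mag.

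Turning to genotype in NeuN- nuclei, the 9 myelin genes had log2 fold changes below 0 in libraries labelled Ogg1-/- (9 of 9, median -0.22) and DKO (9 of 9, median -0.24), and no member passed the test. In libraries labelled Mutyh-/- 7 of 9 lay below 0, with a median of -0.06. The median over all 31863 tested genes was 0.00 in Ogg1-/-, 0.01 in DKO and -0.01 in Mutyh-/-. Since these are bulk libraries, fewer oligodendrocyte nuclei and less myelin RNA per nucleus cannot be told apart. The 3 comparisons share the same WT libraries, so their values are given side by side and are not independent of each other.

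Cnp, which encodes the 2',3'-cyclic nucleotide phosphodiesterase of uncompacted myelin, showed the largest differences of the 9 in libraries labelled Ogg1-/- and DKO. Its NeuN- levels were 323, 351 and 378 CPM in WT, 228, 285 and 300 CPM in Mutyh-/-, 229, 250 and 267 CPM in Ogg1-/-, and 191, 268 and 274 CPM in DKO. All 9 knockout-labelled libraries were below all 3 WT libraries. The log2 fold changes of Cnp were -0.38 (SE 0.13, adjusted p = 0.247) in Mutyh-/-, -0.51 (SE 0.13, adjusted p = 0.160) in Ogg1-/- and -0.53 (SE 0.13, adjusted p = 0.169) in DKO by the quasi-likelihood test, so no call was made. Dnajc7, which overlaps Cnp, had log2 fold changes of 0.10, 0.05 and -0.01 in the same order.

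Those calls for Cnp depended on the test. DESeq2's Wald test gave Cnp an adjusted p of 0.0132 in Ogg1-/- and 0.00983 in DKO, and edgeR's likelihood ratio test 0.0302 and 0.0225. A quasi-likelihood fit of only the groups compared gave 0.0171 in Ogg1-/- but 0.263 in DKO. Leaving out 1 library at a time, the log2 fold change of Cnp stayed between -0.56 and -0.45 in Ogg1-/-, with adjusted p from 0.223 to 0.468. In DKO it ranged from -0.62 to -0.38, the latter without DKO replicate 3, with adjusted p from 0.135 to 0.440.

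Cldn11, the claudin of myelin tight junctions, had 185, 192 and 197 CPM in WT NeuN- libraries, 157, 194 and 197 CPM in Mutyh-/-, 151, 152 and 165 CPM in Ogg1-/-, and 136, 152 and 172 CPM in DKO. Ogg1-/- and DKO libraries lay below all WT libraries, whereas Mutyh-/- overlapped WT. The log2 fold changes were -0.08 in Mutyh-/-, -0.31 (SE 0.09, adjusted p = 0.218) in Ogg1-/- and -0.33 (SE 0.09, adjusted p = 0.212) in DKO by the quasi-likelihood test.

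Myrf, the transcription factor of myelination, had 285, 297 and 323 CPM in WT, 280, 304 and 320 CPM in Mutyh-/-, 252, 255 and 285 CPM in Ogg1-/-, and 231, 261 and 278 CPM in DKO. The highest Ogg1-/- library, at 285.1 CPM, lay just above the lowest WT library at 284.5 CPM on the scaling of 24 libraries, and just below it on the scaling within NeuN- on which non-overlap was counted. The log2 fold changes were -0.01, -0.20 (SE 0.08, adjusted p = 0.327) and -0.24 (SE 0.08, adjusted p = 0.274) in Mutyh-/-, Ogg1-/- and DKO.

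Mag, the adhesion protein that faces the axon, had 366, 388 and 452 CPM in WT, 371, 376 and 385 CPM in Mutyh-/-, 323, 357 and 360 CPM in Ogg1-/-, and 294, 358 and 365 CPM in DKO. The Ogg1-/- and DKO libraries again lay below WT, by a margin of under 10 CPM at their nearest. The log2 fold changes were -0.10, -0.22 and -0.25 (adjusted p = 0.670, 0.350 and 0.303 by the quasi-likelihood test).

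Mog, the surface glycoprotein, had 142, 159 and 170 CPM in WT, 148, 151 and 157 CPM in Mutyh-/-, 128, 133 and 139 CPM in Ogg1-/-, and 107, 137 and 161 CPM in DKO. Ogg1-/- alone lay below WT. Mal, a proteolipid of membrane sorting, had 431, 460 and 464 CPM in WT, 368, 452 and 500 CPM in Mutyh-/-, 332, 401 and 443 CPM in Ogg1-/-, and 321, 380 and 393 CPM in DKO, and here DKO alone lay below WT. The log2 fold changes in Ogg1-/- and DKO were -0.24 and -0.22 for Mog and -0.21 and -0.32 for Mal.

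Mbp, the main protein of the cytoplasmic face of compact myelin, had 1991, 2067 and 2235 CPM in WT, 2031, 2294 and 2401 CPM in Mutyh-/-, 1911, 1928 and 2036 CPM in Ogg1-/-, and 1712, 2087 and 2093 CPM in DKO. Its ranges overlapped between all 4 genotypes, as did those of Mobp and Opalin. Mobp, a basic protein of compact myelin, had 737, 817 and 900 CPM in WT, 800, 1034 and 1081 CPM in Mutyh-/-, 675, 785 and 915 CPM in Ogg1-/-, and 695, 790 and 802 CPM in DKO. Opalin varied most within groups, with 100, 138 and 156 CPM in WT, 84.5, 91.3 and 132 CPM in Mutyh-/-, 96.9, 103 and 122 CPM in Ogg1-/-, and 75.0, 125 and 136 CPM in DKO. Mobp had the highest log2 fold change of the 9 in Mutyh-/- (0.24, SE 0.13, adjusted p = 0.428 by the quasi-likelihood test), and Mbp was also above 0 there (0.09).

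**Figure D2:**
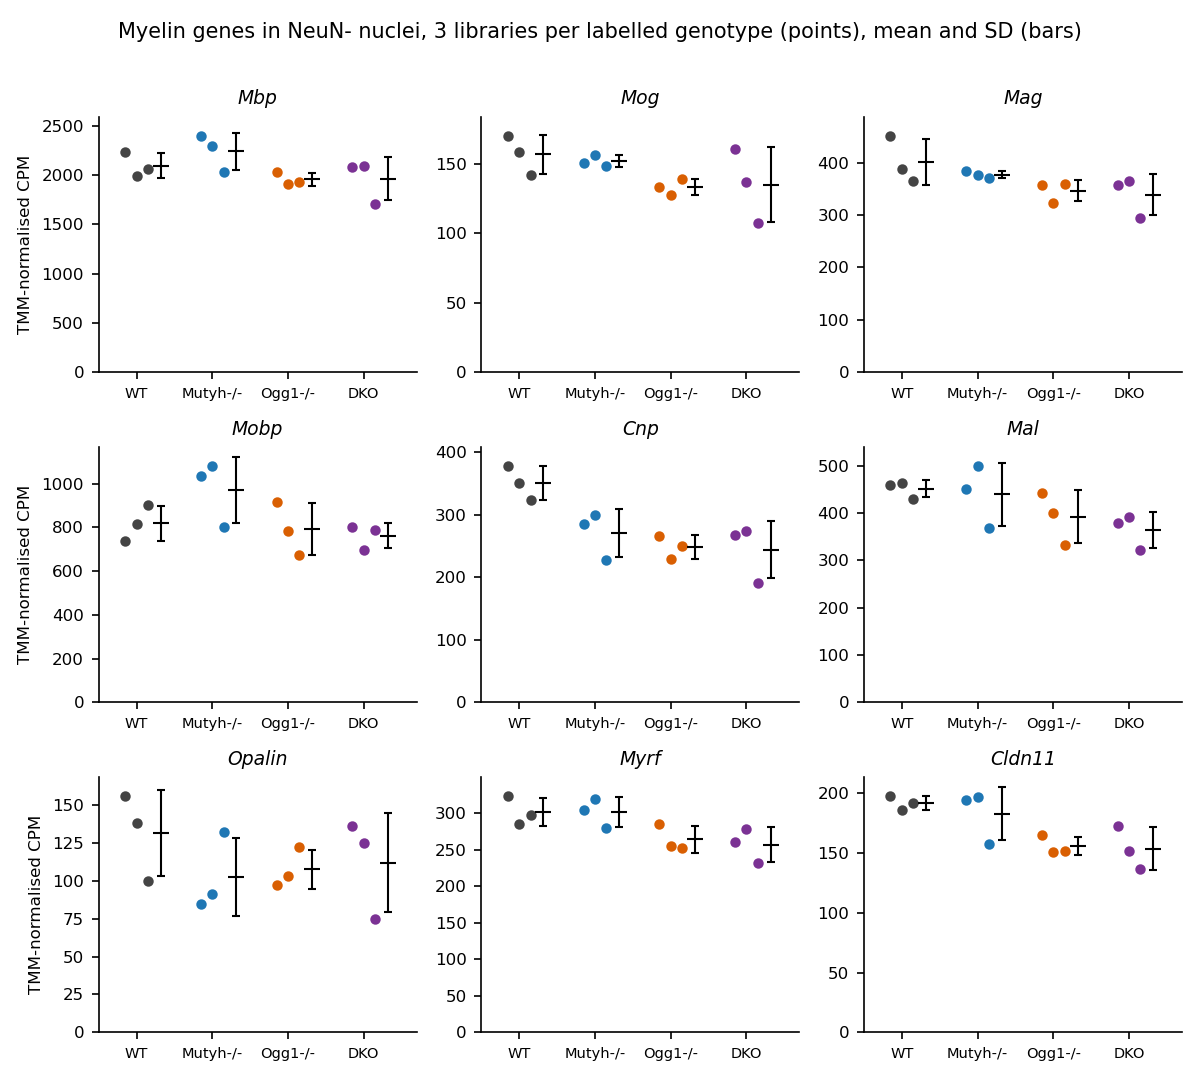
Levels of the 9 myelin genes in the 12 NeuN- libraries (CPM, linear axes from 0), with 1 point per library in order of replicate number and the mean ± SD of each labelled genotype beside it. For Cnp all 9 knockout-labelled libraries, at 191 to 300 CPM, lie below WT at 323 to 378 CPM.

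Counted over the members, 0 of 9 were called in NeuN- (log2 fold change beyond 0.5 in either direction with an adjusted p under 0.05, edgeR's quasi-likelihood test) in each of Mutyh-/-, Ogg1-/- and DKO against WT. The background was 0.273%, 0.229% and 0.116% of all tested genes. At an unadjusted p under 0.05 the numbers were 1 (Cnp) in Mutyh-/-, 4 (Mag, Cnp, Myrf and Cldn11) in Ogg1-/- and 5 (Mag, Cnp, Mal, Myrf and Cldn11) in DKO, where 13.7%, 11.8% and 12.4% of all tested genes passed the same limit. DESeq2 and the likelihood ratio test each called 0, 1 and 1 member, the last being Cnp in both. All 3 knockout-labelled libraries were below all 3 WT libraries for 1 member (Cnp) in Mutyh-/-, against 10.2% of all genes. The same held for 5 of 9 (Mog, Mag, Cnp, Myrf and Cldn11) in Ogg1-/-, against 10.7%, and for 5 of 9 (Mag, Cnp, Mal, Myrf and Cldn11) in DKO, against 9.15%. No member lay above WT in this way in NeuN-, where 9.02%, 9.12% and 7.8% of all genes did in Mutyh-/-, Ogg1-/- and DKO.

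The DKO values rested in part on DKO replicate 3, which was the lowest of the 12 NeuN- libraries for 8 of 9 members, and the WT values on WT replicate 1, the highest for 6 of 9. DKO replicate 3 was also the lowest for 18 of 25 other mature oligodendrocyte genes and for 5 of 7 microglial genes. Without DKO replicate 3 all 9 members still lay below 0, with a median of -0.16, and without DKO replicate 1 the median was -0.35. Without WT replicate 1 the median in Ogg1-/- was -0.16, and over the 6 fits that each left out 1 library 8 or 9 of the 9 lay below 0. In Mutyh-/- the median changed sign to 0.02 without Mutyh-/- replicate 3. The averaged log2 CPM of the 9 genes, relative to the WT mean, was 0.09, -0.01 and -0.08 in WT, -0.05, 0.00 and -0.17 in Mutyh-/-, -0.16, -0.28 and -0.26 in Ogg1-/-, and -0.12, -0.18 and -0.48 in DKO, for replicates 1, 2 and 3.

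**Figure D3:**
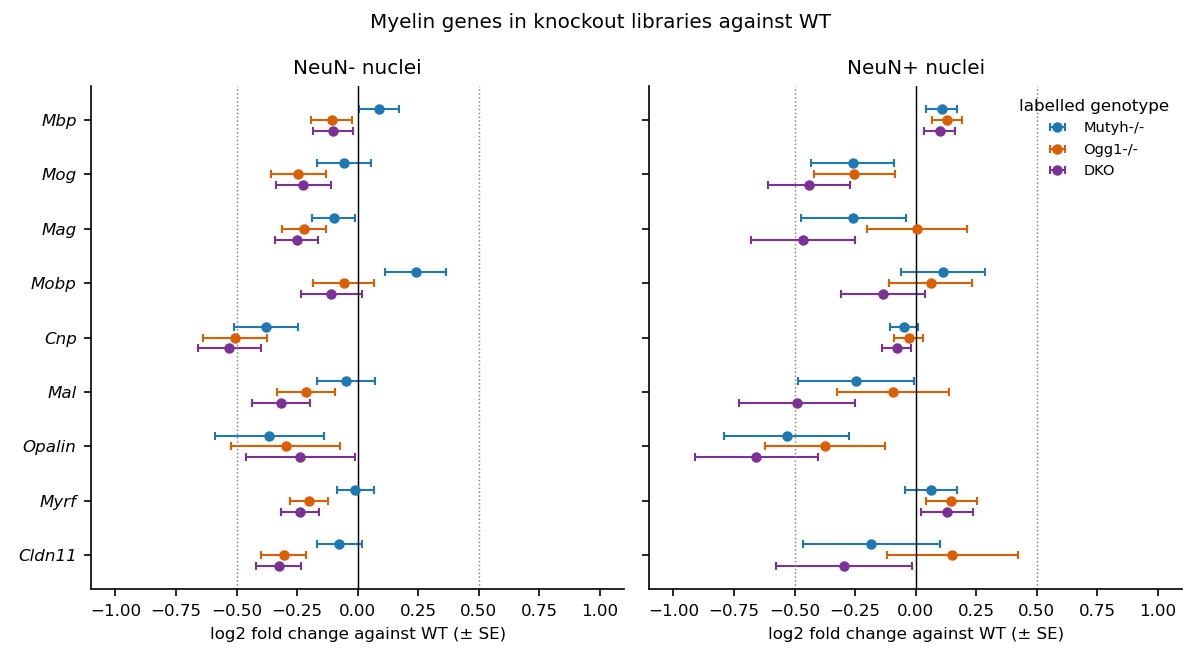
Log2 fold changes (± SE) of the 9 myelin genes in libraries labelled Mutyh-/-, Ogg1-/- and DKO against WT, in NeuN- (left) and NeuN+ nuclei (right), with dotted lines at the limits of ±0.5 used for calls. In NeuN- all 9 points of Ogg1-/- and of DKO lie below 0, from -0.51 to -0.06 and from -0.53 to -0.10, and no gene passed the test in either cell type.

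The knockouts were also compared with each other in NeuN-, where 0 of 9 members were called in each pair by the quasi-likelihood test, by DESeq2 and by the likelihood ratio test. In Ogg1-/- against Mutyh-/- (background 0.521%), 8 of 9 lay below 0 and 4 had an unadjusted p under 0.05 (Mbp -0.20, Mobp -0.30, Myrf -0.19 and Cldn11 -0.23 on the log2 scale), as had 11.5% of all genes, with a lowest adjusted p of 0.354. In DKO against Mutyh-/- (background 0.122%), 8 of 9 lay below 0 and 5 had an unadjusted p under 0.05 (Mbp -0.19, Mobp -0.35, Mal -0.27, Myrf -0.23 and Cldn11 -0.25), as had 11.01% of all genes, with a lowest adjusted p of 0.336. In DKO against Ogg1-/- (background 0.132%) the log2 differences lay between -0.10 and 0.06, none with an unadjusted p under 0.05 (4.34% of all genes), and the 95% intervals of all 9 together reached from -0.43 to 0.55, both bounds set by Opalin. The interval of Mbp was -0.18 to 0.19.

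In NeuN+ nuclei the same genes gave low levels, and against WT some members lay above 0 and others below 0 in each genotype. Mbp had 94.6 to 103 CPM in WT and 98.7 to 115 CPM over the 9 knockout-labelled libraries, and Cnp 34.7 to 36.9 and 32.5 to 37.2 CPM. Myrf had 8.24 to 8.80 CPM in WT and 9.09 to 9.96 CPM in Ogg1-/-, whose 3 libraries were above WT, the 1 member without overlap with WT in this fraction. Of all tested genes, 9.07% lay above WT in this way in Ogg1-/-, 10.3% in Mutyh-/- and 7.33% in DKO. Mobp lay between 3.64 and 6.33 CPM, and Mog, Mag, Mal, Opalin and Cldn11 between 0.350 and 2.59 CPM over all 12 libraries. Even so, every member had 33 or more counts in each WT NeuN+ library.

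**Figure D4:**
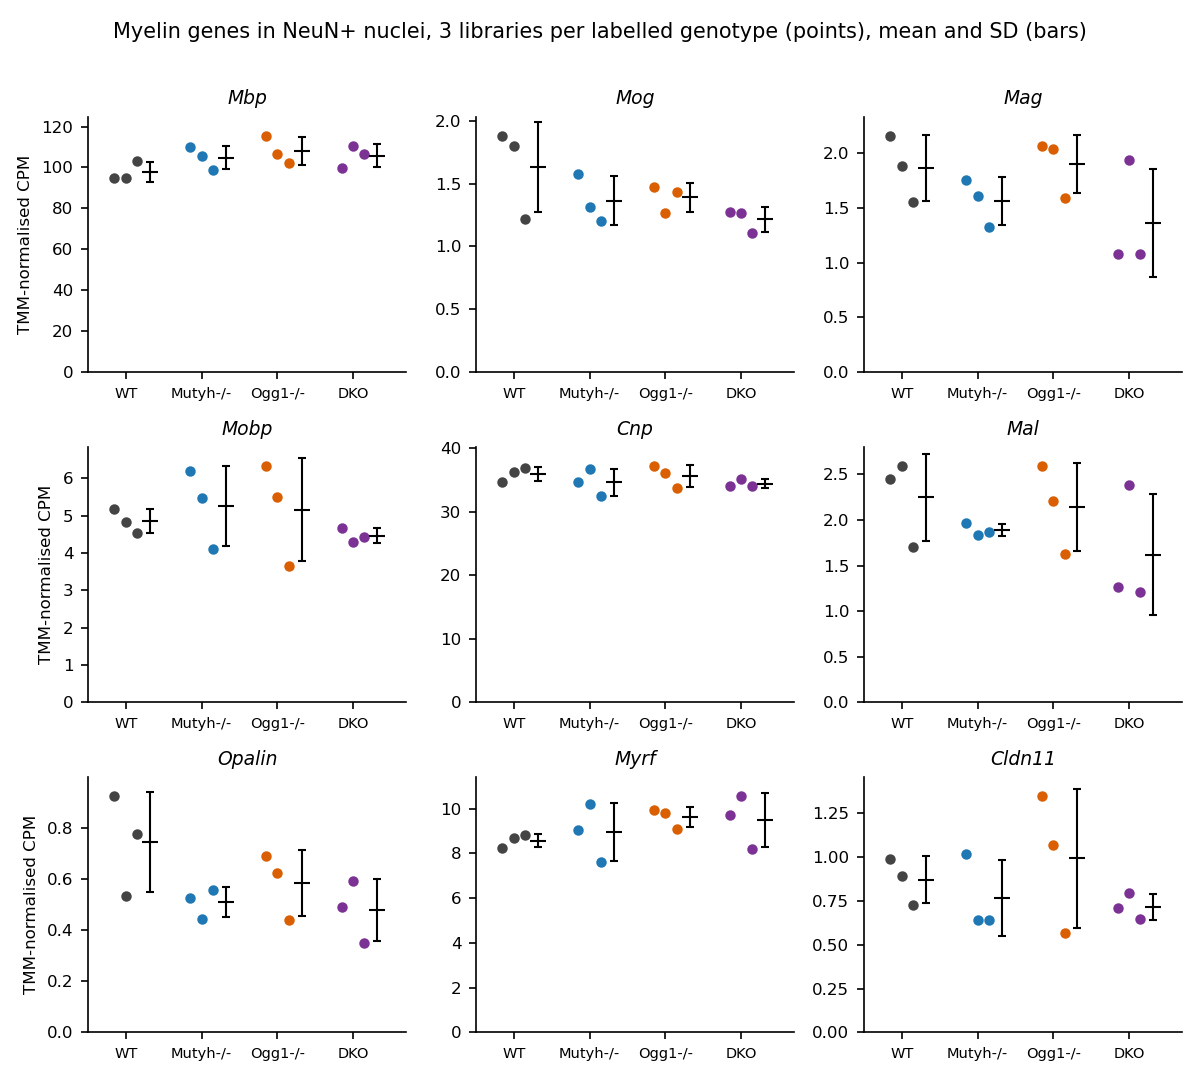
Levels of the 9 myelin genes in the 12 NeuN+ libraries (CPM, linear axes from 0, each gene on its own scale), with points, means and SDs as for NeuN-. Mbp at 94.6 to 115 CPM and Cnp at 32.5 to 37.2 CPM lead, and the 4 genotypes overlap for each gene except Myrf in Ogg1-/-.

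Against WT, 6 of 9 members lay below 0 in NeuN+ libraries labelled Mutyh-/- (median -0.18), 4 of 9 in Ogg1-/- (median 0.01) and 7 of 9 in DKO (median -0.30). The quasi-likelihood test called 0 of 9 in each, with backgrounds of 0.428%, 0.574% and 0.302%, and DESeq2 and the likelihood ratio test also called 0. At an unadjusted p under 0.05 there were 0, 0 and 3 members, where 18.7%, 12.3% and 13.5% of all genes passed, those in DKO being Mog (-0.44, SE 0.17, adjusted p = 0.271), Mag (-0.47, SE 0.21, adjusted p = 0.361) and Opalin (-0.66, SE 0.26, adjusted p = 0.274). Low counts left wide intervals, from -1.20 to -0.11 for Opalin in DKO. In none of the 9 were all 3 knockout-labelled libraries below WT, where 10.8%, 10.2% and 9.49% of all genes were in Mutyh-/-, Ogg1-/- and DKO. Between knockouts 0 members were called in Ogg1-/- against Mutyh-/- (background 0.485%), DKO against Mutyh-/- (0.139%) and DKO against Ogg1-/- (0.216%) by these same 3 tests, with 0, 0 and 1 member (Mag, -0.47) at an unadjusted p under 0.05, where 12.7%, 6.86% and 4.26% of all genes passed.

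Whether a genotype difference varied with cell type was tested as an interaction over all 24 libraries, called at an adjusted p under 0.05. The quasi-likelihood test called 0 of 9 members for Mutyh-/-, Ogg1-/- and DKO, with backgrounds of 0.0209%, 0.0537% and 0.0567%, and DESeq2 and the likelihood ratio test also called 0. At an unadjusted p under 0.05 there were 1, 3 and 2 members, where 8.58%, 7.09% and 9.40% of all genes passed. Cnp was among them each time, with NeuN- minus NeuN+ differences of log2 fold changes of -0.32, -0.49 and -0.46 and adjusted p of 0.580, 0.491 and 0.336. Myrf followed with -0.36 in Ogg1-/- and -0.38 in DKO, and Mbp with -0.25 in Ogg1-/-. The NeuN+ level of Cnp as a percentage of NeuN- was accordingly 10.2% in WT and 12.8%, 14.3% and 14.1% in Mutyh-/-, Ogg1-/- and DKO, and that of Myrf 2.84% in WT and 2.97%, 3.64% and 3.69%.

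Other genes of the lineage were read from lists chosen by their known roles, with earlier results of these data known. Among 25 further genes of mature oligodendrocytes, 24 lay below 0 in NeuN- libraries labelled Ogg1-/- (median log2 -0.22) and 24 in DKO (median -0.25), against 13 in Mutyh-/- (median -0.03). By the quasi-likelihood test 1 of 25 fell in Ogg1-/- and 1 in DKO, Ninj2 both times, and 0 in Mutyh-/-. At an unadjusted p under 0.05 there were 13, 15 and 5. Of all tested genes 11.8% passed that limit in Ogg1-/-, 12.4% in DKO and 13.7% in Mutyh-/-. The same shares are the background for such counts in the other NeuN- lists below. DESeq2 and the likelihood ratio test each called 3 in Ogg1-/-, 2 in DKO and 0 in Mutyh-/-. Summed over the list, NeuN- levels were 3239 to 3615 CPM in WT, 3165 to 3607 CPM in Mutyh-/-, 2704 to 2901 CPM in Ogg1-/- and 2428 to 3081 CPM in DKO, so that Ogg1-/- and DKO lay below WT. Without DKO replicate 3 the DKO median of the list was -0.18.

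Ninj2, which encodes the membrane protein ninjurin 2, had 153, 177 and 198 CPM in WT NeuN- libraries, 194, 203 and 256 CPM in Mutyh-/-, 73.4, 75.0 and 78.1 CPM in Ogg1-/-, and 70.6, 96.9 and 111 CPM in DKO. Both groups labelled as lacking Ogg1 lay below all WT and all Mutyh-/- libraries. It fell by 1.23 on the log2 scale in Ogg1-/- (SE 0.15, adjusted p = 0.00213, called in 15 of 15 alternatives) and by 0.93 in DKO (SE 0.15, adjusted p = 0.0323) in the quasi-likelihood test. The DKO call was lost when only WT and DKO were fitted (adjusted p = 0.141) and in 4 of 6 fits without 1 library, with adjusted p up to 0.144. Ninj2 lies at chr6:120093350-120200339, 6.76 Mb from Ogg1 at chr6:113326972-113335068, so its level, the label and its place near the targeted gene cannot be told apart in these strains.

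The 4 listed genes with the highest WT level in NeuN- had smaller fold changes than Ninj2, and none was called. Trf, for the iron carrier transferrin, averaged 512 CPM in WT, 392 CPM in Ogg1-/- and 386 CPM in DKO, log2 fold changes of -0.39 (SE 0.08, adjusted p = 0.0795) and -0.41 (SE 0.08, adjusted p = 0.0802) by the quasi-likelihood test. Car2, for carbonic anhydrase 2, averaged 232, 184 and 194 CPM (log2 -0.34 and -0.26). Plekhh1 (390 CPM in WT) had -0.19 and -0.15, and the tetraspanin gene Tspan2 (299 CPM in WT) -0.19 and -0.14.

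Enzymes of myelin lipid synthesis, lineage transcription factors and precursor genes had medians nearer to 0, and DESeq2 and the likelihood ratio test called 0 of them in NeuN-. Of 10 lipid genes 0 were called in NeuN- in any genotype (4 and 2 at an unadjusted p under 0.05 in Ogg1-/- and DKO, medians -0.13 and -0.09), and Fa2h and Ugt8a, for fatty acid 2-hydroxylase and the galactosyltransferase of cerebroside, had -0.14 and -0.16 in Ogg1-/-. Sgms1 and Elovl7 had 0.10 and -0.14. The lipid list was less restricted to NeuN- than the other mature oligodendrocyte genes. In WT its median NeuN+ level was 21.5% of NeuN-, from 0.603% for Fa2h to 121% for Sgms1. What part RNA of other cells had in the lipid medians was not tested. Of 10 transcription factor genes 0 were called (2 and 5 at an unadjusted p under 0.05, medians -0.09 and -0.14). Sox10, needed throughout the lineage, had -0.17 and -0.25 in Ogg1-/- and DKO, whereas Tcf7l2, a factor of newly formed oligodendrocytes, had 0.32 and 0.25, and St18 and Zfp536 lay within 0.1 of 0.

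Precursor genes gave 0 calls among 8, medians of -0.10 and -0.08 in Ogg1-/- and DKO, and 1 and 0 genes at an unadjusted p under 0.05. Pdgfra, the growth factor receptor of precursors, averaged 166 CPM in WT and 156 and 151 CPM, with log2 fold changes of -0.10 and -0.14. Vcan had -0.13 and -0.12, and Lhfpl3 (999 CPM in WT) 0.01 and -0.01. Bcas1, an early myelinating marker at 519 CPM in WT, had -0.08 and -0.03.

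In NeuN+ nuclei 2 list genes were called. Elovl1, an elongase of very long chain fatty acids, had 4.10, 4.27 and 4.92 CPM in WT, 1.52, 2.44 and 2.75 CPM in Mutyh-/-, 4.90, 5.84 and 5.86 CPM in Ogg1-/-, and 1.40, 1.66 and 2.29 CPM in DKO. Both groups labelled as lacking Mutyh lay below WT. It fell by 1.00 on the log2 scale in Mutyh-/- (adjusted p = 0.0308, not called with the replicate block or in 4 of 6 fits without 1 library) and by 1.32 in DKO (adjusted p = 0.00542, called in 15 of 15 alternatives) in the quasi-likelihood test. The NeuN- minus NeuN+ difference was 1.24 in DKO (adjusted p = 0.0405), and NeuN- levels were 8.80 to 12.4 CPM over all 12 libraries. Elovl1 lies at chr4:118428093-118432953, 1.61 Mb from Mutyh, and here too place and label cannot be told apart.

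The other was Tspan2, with 6.57, 7.94 and 8.26 CPM in WT NeuN+ and 4.94, 5.29 and 5.44 CPM in Mutyh-/-, which fell by 0.53 on the log2 scale (adjusted p = 0.0217 by the quasi-likelihood test, called in 2 of 6 fits without 1 library). It lies on chromosome 3.

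Genes of other cell types in the NeuN- fraction were read beside them, and their part in the myelin values was not tested. All 8 astrocyte genes lay above 0 in Ogg1-/- (median log2 0.30) and DKO (median 0.19), 4 of 8 in Mutyh-/- (median 0.02). Their summed level was 1391 to 1565 CPM in WT, 1334 to 1720 CPM in Mutyh-/-, 1680 to 1977 CPM in Ogg1-/- and 1637 to 1710 CPM in DKO, above WT in both of the last. By the quasi-likelihood test Aldh1l1 alone rose, in Ogg1-/- (75.5, 94.1 and 96.4 CPM in WT against 119, 132 and 133 CPM, log2 0.52, adjusted p = 0.0483), a call that was lost in 6 of 6 fits without 1 library and with the replicate block. It lies on chromosome 6, 22.7 Mb from Ogg1. DESeq2 and the likelihood ratio test each called 2 astrocyte genes in Ogg1-/- and 1 in DKO.

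All 8 neuronal genes lay below 0 in each genotype (medians -0.16, -0.28 and -0.30 in Mutyh-/-, Ogg1-/- and DKO), with 0 called by the quasi-likelihood test, 1 by DESeq2 and by the likelihood ratio test in DKO, and 4, 5 and 6 at an unadjusted p under 0.05. Their summed level overlapped WT in each (470 to 560 CPM in WT, 392 to 493 CPM in the rest). Microglial medians were -0.08 in Ogg1-/- and -0.03 in DKO (0.07 without DKO replicate 3), with 0 of 7 called or at an unadjusted p under 0.05. Vessel genes had medians of -0.16 and 0.09 (0 of 8 called, 2 and 1 at an unadjusted p under 0.05). Choroid plexus and ependymal genes had medians of 0.58 and 1.16 (0 of 8 called, 0 and 2 at an unadjusted p under 0.05), which single libraries set. Their summed level was 39.5, 43.8 and 66.5 CPM in WT, 15.6, 99.9 and 103 CPM in Ogg1-/-, and 20.5, 72.5 and 221 CPM in DKO. The highest of these was DKO replicate 3, the library lowest for 8 of 9 myelin genes, and without it the DKO median was 0.01. DESeq2 and the likelihood ratio test called 0 genes of these 3 lists in NeuN-. The 4 genes of peripheral myelin, the myelin of nerves outside the brain, summed to 4.64 CPM at most in WT NeuN-, with 0 of 3 tested called in Ogg1-/- or DKO (0 and 1 at an unadjusted p under 0.05), and no gene of any list was at 0 in all 3 libraries of a NeuN- group.

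**Figure D5:**
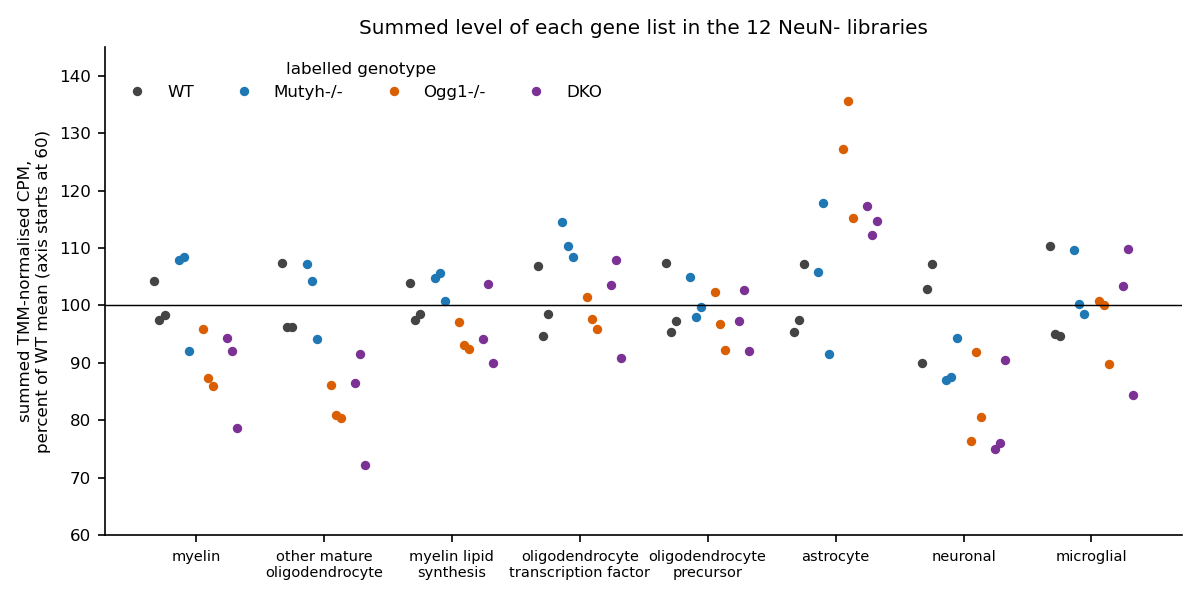
Summed CPM of 8 gene lists in the 12 NeuN- libraries as a percentage of the WT mean, 1 point per library, with the axis starting at 60%. Vessel, choroid plexus and ependymal, and peripheral myelin genes are not drawn. The 9 myelin genes average 89.7% of WT in Ogg1-/- and 88.4% in DKO, other mature oligodendrocyte genes 82.5% and 83.4%, and astrocyte genes 126% and 115%.

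The summed level of the 9 members was 4780 to 5109 CPM in WT NeuN-, 4516 to 5315 CPM in Mutyh-/-, 4211 to 4697 CPM in Ogg1-/- and 3859 to 4625 CPM in DKO. Both Ogg1-/- and DKO lay below WT, at 89.7% and 88.4% of its mean, while Mutyh-/- overlapped it at 103%. Lipid genes were at 94.2% and 96.0%, transcription factor genes at 98.3% and 101%, and precursor genes at 97.2% and 97.4% of WT. In Mutyh-/- these 3 lists were at 104%, 111% and 101%. The summed transcription factor genes lay above WT there (3040 to 3209 CPM against 2656 to 2995 CPM). Of these 10 genes 0 were called and 3 had an unadjusted p under 0.05. St18 (1223 CPM in WT) and Zfp536 (922 CPM) made most of that sum. Gene by gene, DESeq2 gave median log2 fold changes of 0.01, -0.09 and -0.14 in Mutyh-/-, Ogg1-/- and DKO.

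Across the 12 NeuN- libraries the members varied largely together. The median Pearson correlation of log2 CPM over the 36 pairs was 0.700 (median Spearman 0.608, and 0.677 for Pearson after removing genotype means), 35 pairs were above 0 and 27 above 0.5. These are descriptions over 12 libraries that share scaling and group differences, and carry no p. Myrf and Cldn11 had the highest median correlation with the other 8 members (0.826 and 0.812), and Opalin (0.194) and Mobp (0.350) the lowest. Opalin and Mobp ran against each other (r = -0.578), and remained so after genotype means were removed (-0.686). In NeuN+ the median over pairs was 0.437, with 32 of 36 above 0.

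Against the mean profile of the 9 members, 10533 other genes with at least 10 CPM on average in NeuN- had a median correlation of 0.136. The 23 ranked genes of the other mature oligodendrocyte list had a median of 0.829, and the 8 astrocyte genes -0.444. The medians were 0.680 for 10 lipid genes, 0.660 for 10 transcription factor genes, 0.591 for 6 microglial genes, 0.540 for 8 precursor genes, 0.347 for 7 neuronal genes and -0.227 for 3 vessel genes, and the single choroid plexus and ependymal gene ranked had -0.543. The 10 most alike genes were Slc48a1 (r = 0.980, rho = 0.958, and r = 0.954 without the 2 libraries farthest from the median), Cers2 (0.972), Papss1 (0.966), Psmc1 (0.966), Apbb1 (0.964), Tubb4a (0.963), Pogk (0.962), Tgfbrap1 (0.961), Csnk2b (0.958) and Gatm (0.954). Among them Gatm was the most restricted to NeuN- (NeuN+ level 1.91% of NeuN-) and Psmc1 the least (111%). The NeuN+ level was 13.7% for Tubb4a, 16.1% for Cers2, 20.1% for Slc48a1 and 34.5% for Pogk. It was 62.4% for Papss1, 67.6% for Tgfbrap1, 95.2% for Apbb1 and 95.3% for Csnk2b. Likeness to the members was therefore not confined to genes restricted to NeuN-. Tubb4a, a tubulin gene that is abundant in oligodendrocytes, averaged 347 CPM in NeuN- with log2 fold changes of -0.49 in Ogg1-/- and -0.60 in DKO (adjusted p = 0.277 and 0.220 by the quasi-likelihood test). In NeuN- Mutyh-/- it had -0.30. Tubb4a was also lower in NeuN+, by -0.31, -0.43 and -0.40 in Mutyh-/-, Ogg1-/- and DKO (adjusted p = 0.159, 0.0857 and 0.132 by the same test). Cers2, the ceramide synthase of very long chain myelin lipids, had -0.24 and -0.23 in NeuN- Ogg1-/- and DKO. These genes were picked by likeness to the members over the same NeuN- libraries, where the member profile was lower in Ogg1-/- and DKO. Their lower NeuN- values there thus follow from the choice and add no separate observation.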

How the data were processed

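Nuclear RNA of sorted hippocampal nuclei was sequenced from a stranded total RNA kit. The authors aligned read pairs to GRCm38 with HISAT2 2.1.0 and deposited raw counts per gene from featureCounts, without normalization, as named in the submitters' processing notes, which also list edgeR 3.42.4. Counts were analysed here in edgeR 4.0.16 (R 4.3.3, limma 3.58.1), with DESeq2 1.42.0 as an alternative. After edgeR's filter on low counts, 30132 genes were tested in NeuN+, 31863 in NeuN- and 33523 over 24 libraries, with TMM factors, all groups of a fit together, the quasi-likelihood test and Benjamini-Hochberg adjustment over all tested genes. All 9 members passed each filter. Calls needed a log2 fold change beyond 0.5 between genotypes, or 1 between cell types, with an adjusted p under 0.05. Biological variation between replicates (BCV) came to 0.0823 for NeuN+ and 0.124 for NeuN-. Lengths and positions came from GENCODE vM21, whereas the counting used Ensembl genes. The fits were tested on simulated data.

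The members and lists were chosen with earlier results of these data known. Members, genes that share exon bases with them, list genes called against WT, and the 10 genes most alike the member profile are named. So are the 4 genes with the highest WT level in NeuN- of each oligodendrocyte, precursor and myelin lipid list. Overlapping genes without shared exon bases and the highest genes of the other lists are not named. Alternatives were RLE and upper-quartile factors, DESeq2, the likelihood ratio test, other filters, fits of the compared groups alone, the replicate block and fits without 1 library. Calling the main fit by adjusted p alone, without the fold limit, was a further alternative. A gene called in the main test cannot fail it, and the counts of alternatives given for Ninj2 and Elovl1 include it.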

Additional observations from a re-analysis of the deposited data

How the results depend on the processing

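Of 2295 member values recomputed under the alternatives, 2290 kept their side of the threshold and 5 crossed it, all for Cnp in NeuN-, and 106 values of members that were not called changed sign. The number of members called in NeuN- became 1 in Ogg1-/- under DESeq2, the likelihood ratio test and a fit of only the groups compared, and 1 in DKO under DESeq2 and the likelihood ratio test. It stayed at 0 in all other genotype comparisons, and in all fits without 1 library (0 to 0), and at 9 of 9 between the cell types (9 to 9).

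Counts over all genes moved by over 1.5 times with the test and with single libraries. Over the other settings and over fits without 1 library respectively, NeuN- Ogg1-/- against WT gave 73 to 179 and 50 to 74 calls (73 in the main test), NeuN- DKO against WT 10 to 178 and 19 to 55 (37), and NeuN- Mutyh-/- against WT 70 to 239 and 31 to 435 (87), the last without Mutyh-/- replicate 3. In NeuN+ the same genotypes gave, in that order, 153 to 332 and 70 to 164 (173), 87 to 275 and 36 to 137 (91), and 113 to 625 and 62 to 837 (129), again highest without Mutyh-/- replicate 3. Between knockouts, DKO against Mutyh-/- in NeuN- ranged from 2 to 160 (39) and in NeuN+ from 16 to 93 (42), Ogg1-/- against Mutyh-/- from 66 to 342 (166) and from 96 to 521 (146), and DKO against Ogg1-/- from 25 to 69 (42) and from 52 to 96 (65). The cell types gave 8615 to 24259 calls (14371), and the interactions 2 to 95 (7) for Mutyh-/-, 12 to 65 (18) for Ogg1-/- and 7 to 223 (19) for DKO. The cause was not tested. Scaled by library totals, the WT NeuN+ level was 8.71% of NeuN- for Cnp, 3.96% for Mbp and 2.42% for Myrf.

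With the replicate block, the log2 fold change of Cnp in NeuN- was -0.50 in Ogg1-/- and -0.54 in DKO (adjusted p = 0.0761 and 0.0577) by edgeR's quasi-likelihood test, and 0 members were called. Whether equal numbers mark shared animals is not given, and the main fits did not pair the samples by number. Deviations from group means correlated between same-numbered NeuN+ and NeuN- libraries with a mean r of 0.111. These values ran from 0.0107 to 0.292 and were over 0.1 in 6 of 12 pairs. Same-numbered libraries of different genotypes gave means of -0.00512 within NeuN+ and 0.0433 within NeuN-. The main tests between cell types thus leave out a pairing that may exist.

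Groups of 3 libraries and few counts of most members in NeuN+ limit the precision there, and intervals cover only the spread between these libraries.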
